A study of Mus musculus with 12 samples.

Results

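The comparison was between CX3CR1+ and CD27lo CX3CR1- CD8+ T cells sorted from the spleens of the same tumor-bearing mice, and it asked how the T cell receptor (TCR) β repertoires of the 2 subsets differ. The libraries were chosen by their labelled cell type, which gave 3 CX3CR1+ and 3 CD27lo CX3CR1- libraries, 6 of the 12 in the series. The labels write the 2 subsets as CX3CR1hi and CD27loCX3CR1lo. Both came from female C57BL/6 mice bearing MC38, a mouse colon adenocarcinoma line, and every group of the series, these 2 included, received anti-CTLA-4 Ab and anti-PD-L1 Ab, so there was no untreated group. A code in the sample titles ties 1 library of each subset to each of 3 experiments, here named A, B and C. The remaining libraries, which are CD27hi CX3CR1- splenic cells and CD8+ tumor-infiltrating lymphocytes (TILs) from the same experiments, were used only where a value needed a reference. Each experiment of the study used several mice and each subset has 1 library in it, so each library was treated as pooled animals, and the spread between experiments is not a spread between single mice. The subsets were gated as CD45+ CD3+ CD8+ cells by flow cytometry. The assay reads rearranged TCR genes in genomic DNA, so neither the gates nor their purity can be checked against marker genes in these files.

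CX3CR1 is a chemokine receptor that marks CD8+ T cells that have differentiated into circulating effectors, and CD27 is a costimulatory receptor that is lost as differentiation proceeds. A TCR β chain gene is assembled in the thymus by joining 1 V, 1 D and 1 J segment, with bases trimmed and inserted at the joints. The resulting junction encodes the CDR3 loop, which contacts the peptide and differs between almost all newly made T cells. All descendants of 1 T cell carry the same rearrangement, so it can serve as a tag of the clone. The same rearrangement in 2 sorted subsets can mark clonal relatives in both. It can also arise if the same bases were joined independently, or if cells of 1 subset were carried over into the sort of the other.

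The authors deposited, for each rearrangement, its sequence, its V and J genes and a template count, an estimate of the number of genomes that carried it. Only in-frame rearrangements without a stop codon were used, unless stated otherwise. The CD27lo CX3CR1- libraries (CD27lo below) held between 18180 and 21622 productive templates and between 12910 and 15489 unique rearrangements. The CX3CR1+ libraries held more templates, between 50994 and 113660, but fewer unique rearrangements, between 5591 and 11455. A rearrangement had on average 1.40 to 1.42 templates in CD27lo and 7.80 to 9.92 in CX3CR1+. A count of 0 allows a share of up to 0.0139% to 0.0165% of templates in CD27lo and up to 0.00264% to 0.00588% in CX3CR1+, taking 3 templates as the limit. Intervals and limits cover counting error only. With 3 experiments, the exact two-sided sign-flip test of within-experiment differences cannot give a p below 0.25. Tests over many genes used edgeR's quasi-likelihood test with the experiment as a block.

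Expanded clones of the CX3CR1+ subset were frequently detected in CD27lo of the same experiment. A clone was called expanded if its rearrangement held at least 0.1% of productive templates of its library. Since these clones were chosen for a high share in CX3CR1+, their lower shares in CD27lo are given as a description only. The CX3CR1+ libraries held 143, 126 and 144 expanded clones in experiments A, B and C, which made up 61.7%, 65.5% and 59.4% of their templates. Of these, 97 of experiment A were found in CD27lo (67.8%, exact 95% interval 59.5% to 75.4%), as were 74 of experiment B (58.7%, 49.6% to 67.4%) and 84 of experiment C (58.3%, 49.8% to 66.5%). The share found was 61.6% ± 5.37 (SD, n = 3 experiments). Against CD27lo libraries of the other experiments, only 2.80% to 6.35% of the expanded clones were found, so detection was largely tied to the experiment. Detection moved with clone size. Of clones between 0.1% and 0.2% of CX3CR1+ templates, 55.7%, 47.1% and 33.3% were found in experiments A, B and C, and of clones of at least 0.5%, 28 of 29, 23 of 26 and 27 of 30.

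**Figure D1:**
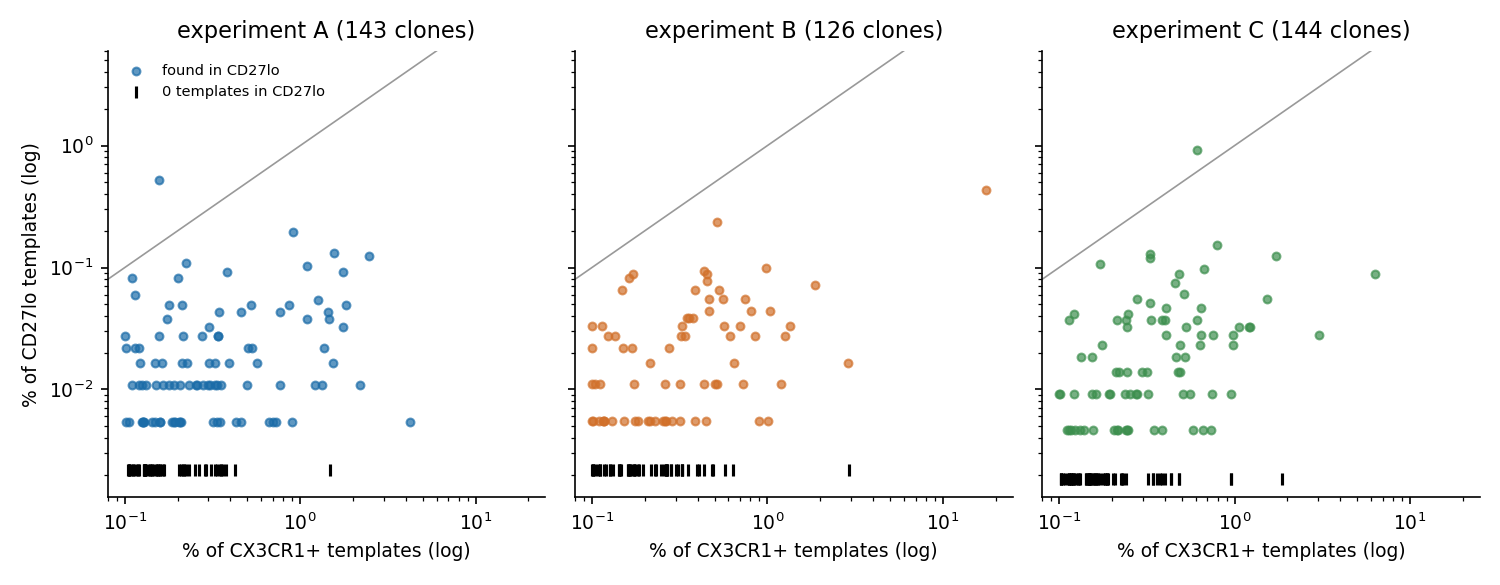
Share of each expanded CX3CR1+ clone in CX3CR1+ templates (x axis, %, log scale) and in CD27lo templates of the same experiment (y axis, %, log scale), 1 point per clone and 1 panel per experiment. The grey line marks equal shares, and ticks along the bottom are clones with 0 templates in CD27lo, placed below the share of 1 template. Nearly all points lie far below the line, and 1 point each in experiments A and C lies above it.

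The expanded clones together held 3.10%, 2.65% and 3.35% of CD27lo templates in experiments A, B and C. This was 0.0502, 0.0404 and 0.0564 times their pooled share in CX3CR1+, the share on which they were chosen. The paper states a lower bound for the purity of the sorted cells, from flow cytometry after the sort. The part that carry-over of cells between the sorts had in this overlap, and its size against that bound, was not tested. Among clones found in both subsets, the median ratio of the CD27lo share to the CX3CR1+ share was 0.0434, 0.0520 and 0.0434. A single clone in experiment A and 1 in experiment C had a higher share in CD27lo than in CX3CR1+, and none in experiment B did. In the other direction, few CD27lo clones were expanded, namely 7, 2 and 8. Of these, 6, 2 and 6 were found in CX3CR1+, and all of those found were also expanded there. Over whole libraries, rearrangements found in CX3CR1+ held 6.63%, 6.67% and 7.21% of CD27lo templates, whereas rearrangements found in CD27lo held 57.2%, 56.6% and 50.5% of CX3CR1+ templates.

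The most abundant clones of CX3CR1+ are given with their sequence, since they carry the shared templates and let a clone be followed between subsets. Each is printed 5′ to 3′ from the conserved cysteine codon of the V gene to the end of the read, which stops 1 codon before the end of the CDR3. Capitals mark the bases between the end of the V gene and the start of the J gene (D gene and inserted bases), and the letter of the name gives the experiment. The first 3 of each experiment were the most abundant in CX3CR1+.
A1 (TCRBV03-01, TCRBJ02-01): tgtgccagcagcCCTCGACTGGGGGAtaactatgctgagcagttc
A2 (TCRBV12-01, TCRBJ02-05): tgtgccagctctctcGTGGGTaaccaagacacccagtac
A3 (TCRBV13-02, TCRBJ01-05): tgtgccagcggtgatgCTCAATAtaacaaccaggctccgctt
B1 (TCRBV05-01, TCRBJ01-03): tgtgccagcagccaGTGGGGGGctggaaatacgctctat
B2 (TCRBV05-01, TCRBJ02-07): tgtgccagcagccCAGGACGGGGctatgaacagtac
B3 (TCRBV01-01, TCRBJ01-03): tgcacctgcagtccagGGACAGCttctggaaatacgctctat
C1 (TCRBV31-01, TCRBJ02-03): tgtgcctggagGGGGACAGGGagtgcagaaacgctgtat
C2 (TCRBV13-01, J gene unresolved): tgtgccagcagtgGGGGGAGGcagtac
C3 (TCRBV19-01, TCRBJ02-07): tgtgccagcagCAACAGGGTtgaacagtac

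The clone B1 was the most abundant of all, with 8948 templates in CX3CR1+, 17.5% of the library (95% Wilson interval 17.2% to 17.9%). In CD27lo of the same experiment it had 78 templates, 0.429% (0.344% to 0.535%), and was the most abundant clone there too. The difference was 40.9-fold (exact counting interval 32.7 to 51.8). The clone C1 held 6.33% of CX3CR1+ templates and 0.0879% of CD27lo templates, a 72.0-fold difference (46.1 to 120). The clone A1 had 2356 templates in CX3CR1+ (4.22%) and 1 in CD27lo, a ratio of 776 with a counting interval of 139 to 30675, and it was not seen in 5893 productive TIL templates of that experiment. These clones were thus abundant in CX3CR1+ and differed widely in how much of them was seen in CD27lo.

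Abundance in CX3CR1+ did not ensure detection in CD27lo. The clone B2, with 1487 templates or 2.92% of CX3CR1+, had none among 18180 CD27lo templates. Its share was 177-fold the limit of 3 CD27lo templates, and the exact lower bound of the ratio was 144-fold. The clone C3, with 2121 templates or 1.87%, had none among 21622. Its share was 134-fold the same 3-template limit, with an exact lower bound of 109-fold. Both clones were present in CD27hi CX3CR1- cells, with 13 and 5 templates. The other named clones of CX3CR1+ were found in CD27lo. A2 had 23 templates there and a 19.6-fold higher share in CX3CR1+ (13.0 to 31.1), C2 had 6 (0.0277%, Wilson interval 0.0127% to 0.0605%) and a 109-fold higher share, and A3 and B3 had 2 and 3 templates.

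The clones that stood out in CD27lo were fewer and smaller. They are shown because they include those with the highest share in CD27lo relative to CX3CR1+.
A4 (TCRBV03-01, TCRBJ01-02): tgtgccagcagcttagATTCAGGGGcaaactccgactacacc
A5 (TCRBV15-01, TCRBJ02-07): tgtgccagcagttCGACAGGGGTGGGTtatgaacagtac
A6 (TCRBV20-01, TCRBJ01-05): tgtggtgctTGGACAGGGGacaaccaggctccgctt
B4 (TCRBV04-01, TCRBJ02-07): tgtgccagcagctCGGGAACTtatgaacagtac
C4 (TCRBV12-01, TCRBJ02-05): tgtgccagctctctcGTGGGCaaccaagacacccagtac
C5 (TCRBV14-01, TCRBJ02-07): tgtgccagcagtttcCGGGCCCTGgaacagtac
C6 (TCRBV12-01, TCRBJ02-05): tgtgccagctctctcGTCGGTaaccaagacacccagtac

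The clone A4 was the most abundant of CD27lo in experiment A, with 96 templates (0.522%, 0.428% to 0.637%), and had 87 in the deeper CX3CR1+ library (0.156%, 0.126% to 0.192%). Its share was 3.35 times higher in CD27lo. Since the clones of this list were chosen for a high share in CD27lo, these differences are a description only. The clone C4 had 198 templates in CD27lo (0.916%, 0.797% to 1.05%) and 698 in CX3CR1+ (0.614%, 0.570% to 0.661%), 1.49 times higher in CD27lo. Of the expanded CD27lo clones, 3 had no template in CX3CR1+. They were C5 with 37 templates, C6 with 26 and A6 with 27. Their CD27lo shares were 64.8-fold, 45.6-fold and 27.3-fold the limit of 3 CX3CR1+ templates. The exact upper bounds of the ratio of the CX3CR1+ share to the CD27lo share were 0.0199, 0.0290 and 0.0482. The clone C6 had 240 templates in the TILs of the same experiment (1.15%), while A6 and C5 had none there. A5 and B4 were expanded in both subsets and had higher shares in CX3CR1+, by 4.65-fold and 2.17-fold.

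The clones A2, C4 and C6 have different bases in the junction but encode the same CDR3 with the same V and J genes, so that 1 protein-level receptor chain was reached by several rearrangements and in more than 1 experiment. Counted as a translated clonotype, this TCRBV12-01/TCRBJ02-05 chain held 2.46%, 2.37% and 2.22% of CX3CR1+ templates in experiments A, B and C, and 0.147%, 0.451% and 1.12% of CD27lo templates. The chain was reached through clones named for a high share in CX3CR1+ or CD27lo, so these shares are a description only. Its CD27lo share differed more between experiments than its CX3CR1+ share. It was found in all 12 libraries and held 2.68%, 9.66% and 3.52% of TIL templates and 0.0251% to 0.0590% of CD27hi CX3CR1- templates. In CX3CR1+ it was made by 1, 7 and 6 rearrangements in experiments A, B and C. The most abundant rearrangements of experiments A and C were identical in sequence, while that of experiment B was different.
Experiment A, 1370 templates in CX3CR1+ and 23 in CD27lo: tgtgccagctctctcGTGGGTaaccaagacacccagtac
Experiment B, 286 templates in CX3CR1+ and 10 in CD27lo: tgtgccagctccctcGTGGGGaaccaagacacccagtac
Experiment C, 1733 templates in CX3CR1+ and 12 in CD27lo: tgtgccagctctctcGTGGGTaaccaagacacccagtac

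Over all 3 experiments, 383 translated clonotypes were expanded in CX3CR1+. Of these, 21 were expanded in at least 2 experiments and 3 in all 3. By nucleotide sequence, 6 rearrangements were expanded in at least 2 experiments. Among the 21, 6 used a TCRBV13 gene, 4 a TCRBV12 gene, 4 TCRBV03-01 and 2 TCRBV19-01. Of all unique CX3CR1+ rearrangements, these made up 21.8% to 22.3%, 13.0% to 13.9%, 6.47% to 7.25% and 8.08% to 8.50%. In CD27lo, 20 of the 21 were found in at least 1 library and 5 in all 3. The counts were 19 and 7 in CD27hi CX3CR1- cells, and 21 and 8 in TILs. Each of the 45 times that a clonotype of the 21 was expanded in CX3CR1+, its share in CD27lo of that experiment was lower. These clonotypes were selected on their CX3CR1+ shares, so the lower shares in CD27lo are a description only. The other two chains expanded in all 3 experiments are shown for the different rearrangements that encoded them. A TCRBV13-02/TCRBJ02-07 chain with a CDR3 of 10 residues held 0.217%, 0.524% and 0.156% of CX3CR1+ templates and 0.0272%, 0.0715% and 0.0370% of CD27lo templates. Its most abundant rearrangement in experiments B and C had 0 inserted bases. A TCRBV03-01/TCRBJ01-03 chain with a CDR3 of 15 residues held 0.333%, 0.853% and 0.802% of CX3CR1+ templates and 0.0272%, 0.0495% and 0.0740% of CD27lo templates. Its leading rearrangement had 3 to 5 inserted bases.
TCRBV13-02/TCRBJ02-07, experiments B and C, 191 and 88 templates in CX3CR1+: tgtgccagcggtgGGtatgaacagtac
TCRBV03-01/TCRBJ01-03, experiment A, 72 templates in CX3CR1+: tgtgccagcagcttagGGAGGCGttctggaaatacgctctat
TCRBV03-01/TCRBJ01-03, experiment B, 162 templates in CX3CR1+: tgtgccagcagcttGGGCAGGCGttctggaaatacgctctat
TCRBV03-01/TCRBJ01-03, experiment C, 584 templates in CX3CR1+: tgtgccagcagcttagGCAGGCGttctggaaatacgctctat

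Expanded CX3CR1+ clones that were found in CD27lo were then compared with those that were not. Clones found were larger, with a median share of 0.278%, 0.324% and 0.329% of CX3CR1+ templates against 0.156%, 0.191% and 0.161% for clones not found (higher in 3 of 3 experiments, exact sign-flip permutation p = 0.25, the smallest possible). The gene TCRBJ02-07 was used by 20.6%, 18.9% and 17.9% of clones found and by 45.7%, 42.3% and 33.3% of clones not found (lower in 3 of 3 experiments, exact sign-flip permutation p = 0.25). The template count moved with the J gene, as described below, and rearrangements with this gene had the highest counts. Without them, 68.5% ± 6.29 (SD, n = 3) of expanded CX3CR1+ clones were found in CD27lo. CDR3 length differed by a mean of -0.0293 residues between clones found and not found, with an SD over experiments of 0.332 (n = 3).

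Presence in CD27lo was set against presence in the other compartments of the same experiment. Of the expanded CX3CR1+ clones found in CD27lo, 29 of 97, 41 of 74 and 79 of 84 were also detected in TILs, and of those not found, 12 of 46, 28 of 52 and 49 of 60. Within classes of CX3CR1+ frequency, the difference was 0.0358, -1.85 and 11.7 percentage points, on average 3.28 ± 7.31 (SD, n = 3 experiments; exact sign-flip permutation p = 0.75), smaller than its spread between experiments. Without experiment C the mean was -0.906. With the TIL libraries at equal depth it was 4.04 ± 7.25 (SD, n = 3; exact sign-flip permutation p = 0.75). Counted as amino acid clonotypes it was 8.23 ± 4.77, and with clones of at least 0.05% it was 6.22 ± 3.58 (SD, n = 3; exact sign-flip permutation p = 0.25 in both, the smallest possible). For CD27hi CX3CR1- cells the difference was larger. Of the clones found in CD27lo, 75 of 97, 61 of 74 and 62 of 84 were also found there, against 19 of 46, 22 of 52 and 33 of 60 of those not found. Within frequency classes this was a difference of 26.6 ± 13.4 percentage points (SD, n = 3; higher in 3 of 3 experiments, exact sign-flip permutation p = 0.25). Among clones of at least 0.5% alone, where few were not found, the mean was -1.44.

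The share of expanded CX3CR1+ clones detected in CD27lo was also compared with the share detected in CD27hi CX3CR1- cells, which was 65.7%, 65.9% and 66.0%. CD27lo minus CD27hi was -4.23 ± 5.48 percentage points on average (SD, n = 3; exact sign-flip permutation p = 0.5). The CD27hi libraries were sequenced to more templates. With CD27hi reduced to the template total of CD27lo in the same experiment, its expected shares were 43.3%, 43.6% and 39.8% against the unchanged 67.8%, 58.7% and 58.3% in CD27lo, and the difference turned to 19.4 ± 4.75 percentage points (SD, n = 3; higher in 3 of 3 experiments, exact sign-flip permutation p = 0.25).

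V gene use was compared by counting each unique rearrangement once, so that expanded clones carry no extra weight. Of 24 V genes tested, 1 was called at an adjusted p under 0.05, which is 4.17% of the V genes. This was TCRBV19-01 (Trbv19, a functional V segment on chromosome 6, 41178589 to 41179048 of GRCm38.p6). It made up 7.44%, 7.68% and 7.22% of unique rearrangements in CD27lo of experiments A, B and C, and 8.50%, 8.21% and 8.08% in CX3CR1+. All 3 CX3CR1+ libraries lay above all 3 CD27lo libraries. The log2 difference was 0.15 ± 0.04 (SE, n = 3 per group; edgeR adjusted p = 0.0057). DESeq2 called no V gene, and the edgeR call was lost when any experiment was left out, with adjusted p between 0.19 and 0.362 and log2 differences between 0.14 and 0.18.

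TCRBV19-01 made up 7.26% to 7.48% of unique rearrangements in CD27hi CX3CR1- cells, within the CD27lo range, and 9.20% to 10.6% in TILs. In out-of-frame rearrangements, which encode no receptor, its log2 difference between CX3CR1+ and CD27lo was 0.08 ± 0.06 (SE, n = 3 per group; edgeR adjusted p = 0.783), and no V gene of 24 (0%) was called there. The in-frame and out-of-frame differences were not distinguishable (difference 0.08 ± 0.08 on the log2 scale, SE; edgeR adjusted p = 0.982). Of the expanded CX3CR1+ clones, 13 of 143, 8 of 126 and 13 of 144 used TCRBV19-01. By template, the gene held 8.06%, 6.48% and 9.19% in CX3CR1+ and 7.04%, 7.42% and 7.28% in CD27lo, lower in CX3CR1+ in experiment B (edgeR adjusted p = 0.643).

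**Figure D2:**
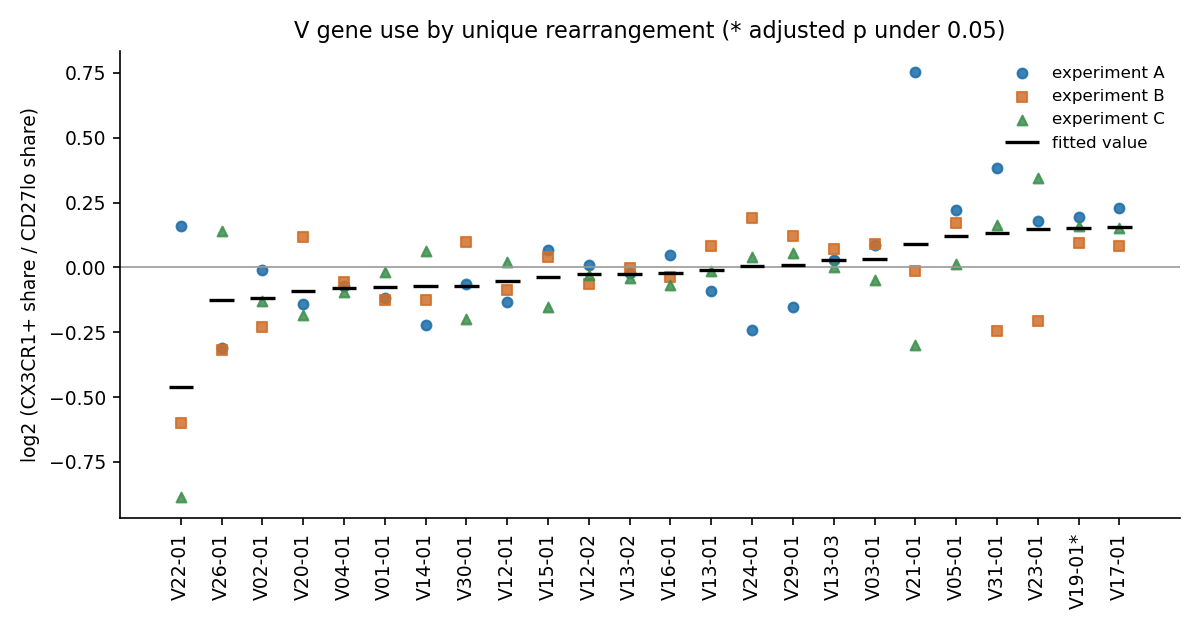
Difference in V gene use between CX3CR1+ and CD27lo (y axis, log2 ratio of the shares of unique rearrangements) for the 24 V genes tested, 1 point per experiment and a black line at the fitted value. TCRBV19-01, marked with an asterisk, is called, with all 3 experiments above 0, while genes with few rearrangements, such as TCRBV22-01 and TCRBV21-01, scatter widely.

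The other V genes with the greatest log2 differences did not pass the test. TCRBV22-01, annotated as a V pseudogene (Trbv22, chromosome 6, 41212075 to 41212534), had a log2 difference of -0.46 ± 0.37 (SE), on only 4 to 20 rearrangements a library. TCRBV17-01 had 0.16 ± 0.10 and TCRBV23-01 0.15 ± 0.23 (SE, n = 3 per group; edgeR adjusted p = 0.588 and 0.828). Families with several members were level. TCRBV12 genes held 13.7% to 14.0% of unique rearrangements in CD27lo and 13.0% to 13.9% in CX3CR1+, and TCRBV13 genes 21.6% to 22.6% and 21.8% to 22.3%, with mean differences of -0.453 ± 0.411 and -0.0132 ± 0.582 percentage points (SD, n = 3; exact sign-flip permutation p = 0.5 and p = 1).

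By template, where expanded clones count in full, V gene use was compared in the same way. No V gene of 24 (0%) was called by edgeR or by DESeq2, although 7 and 5 had an unadjusted p under 0.05. TCRBV05-01 made up 4.55%, 5.19% and 4.90% of CD27lo templates and 7.25%, 23.2% and 4.32% of CX3CR1+ templates. It was high in CX3CR1+ of experiment B, where the clone B1 held 75.5% of the gene's templates, and lower than CD27lo in experiment C. TCRBV16-01 was lower in CX3CR1+ in 3 of 3 experiments, with 6.46% ± 0.121 in CD27lo and 3.63% ± 0.446 in CX3CR1+ (SD, n = 3; log2 difference -0.84 ± 0.26, SE; edgeR adjusted p = 0.0975). TCRBV03-01 was higher in CX3CR1+ in 3 of 3 experiments, at 9.91% to 11.0% against 6.43% to 6.96% (log2 difference 0.61 ± 0.20, SE; edgeR adjusted p = 0.0975). TCRBV26-01 had a log2 difference of -1.03 ± 0.37 (edgeR adjusted p = 0.113), and TCRBV21-01 one of -1.14 ± 0.92 (edgeR adjusted p = 0.359). Without the replicate block 5 V genes were called.

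Among V-J pairs, 1 of 228 tested by unique rearrangement was called (0.439%), and it joined TCRBV19-01 to TCRBJ02-01 (Trbj2-1, chromosome 6, 41542754 to 41542803). This pair made up 0.993%, 0.945% and 0.936% of unique rearrangements in CD27lo, on 129, 122 and 145 rearrangements. In CX3CR1+ it made up 1.59%, 1.66% and 1.41%, on 114, 93 and 161 rearrangements. These rearrangements are also counted under TCRBV19-01 and under TCRBJ02-01, so the calls of the pair and of its genes are not independent. Each CX3CR1+ value lay above the Wilson interval of every CD27lo library, and the log2 difference was 0.68 ± 0.10 (SE, n = 3 per group; edgeR adjusted p = 0.0384). The same pair made up 0.946% to 0.992% in CD27hi CX3CR1- cells and 2.28% to 3.68% in TILs. The call was lost without experiment B (log2 difference 0.63, adjusted p = 0.0719) and without experiment C (0.74, adjusted p = 0.572). DESeq2 called no V-J pair, with 3 at an unadjusted p under 0.05.

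Few of the rearrangements of this pair were expanded clones. In CX3CR1+, 5, 1 and 8 of them were expanded, and none were in CD27lo. Without rearrangements found in both libraries the pair remained called, as it did when translated clonotypes were counted. By template, 0 of 243 V-J pairs (0%) were called by edgeR, with 82 at an unadjusted p under 0.05, while DESeq2 called 10 and edgeR without the replicate block called 28. The TCRBV19-01/TCRBJ02-01 pair held 2.50%, 0.943% and 3.18% of CX3CR1+ templates and 0.843% to 0.908% of CD27lo templates.

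**Figure D3:**
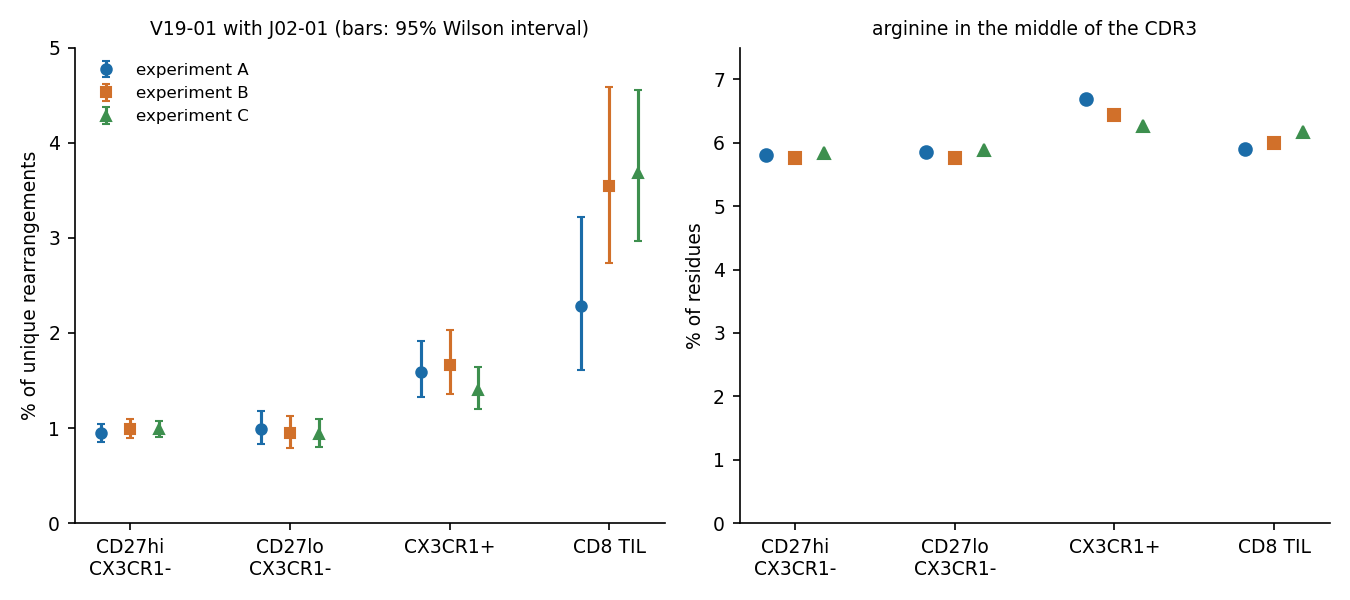
Left, share of unique rearrangements that join TCRBV19-01 to TCRBJ02-01 (y axis, %) in each library of the 4 groups, with 95% Wilson intervals. Right, arginine as a share of the residues in the middle of the CDR3 (y axis, %). CD27lo and CD27hi libraries sit near 1% on the left and CX3CR1+ libraries between 1.41% and 1.66%, with TILs higher, while on the right CX3CR1+ libraries, at 6.26% to 6.69%, lie above all others.

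J gene use differed more often. By unique rearrangement, 5 of 12 J genes were called (41.7%). Lower in CX3CR1+ were TCRBJ02-03 (8.36%, 8.61% and 8.20% in CD27lo, 7.30%, 6.69% and 7.13% in CX3CR1+, log2 difference -0.25 ± 0.06, SE), TCRBJ01-01 (10.2% to 10.4% against 8.69% to 9.90%, -0.19 ± 0.05) and TCRBJ02-05 (11.1% to 11.4% against 9.57% to 10.2%, -0.18 ± 0.05). Higher were TCRBJ02-01 (12.1%, 12.2% and 12.1% in CD27lo, 14.0%, 13.6% and 13.3% in CX3CR1+, 0.17 ± 0.05) and TCRBJ01-03 (4.56% to 4.82% against 5.03% to 5.87%, 0.26 ± 0.09). The 5 adjusted p-values from edgeR lay between 0.00338 and 0.0279. For each of the 5 genes the 3 libraries of one subset lay apart from the 3 of the other. In CD27hi CX3CR1- cells, TCRBJ01-01 made up 8.59% to 9.25% and TCRBJ02-05 9.99% to 10.4%, near CX3CR1+ and below all CD27lo libraries. TCRBJ02-01 made up 12.2% to 12.5% there, near CD27lo. TCRBJ02-03 (7.74% to 8.05%) lay between CD27lo and CX3CR1+, and TCRBJ01-03 (4.79% to 5.11%) overlapped both.

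DESeq2 called no J gene, and between 1 and 4 were called by edgeR when an experiment was left out, the lowest without experiment A. The J genes lie in 2 clusters on chromosome 6, and the calls were spread over both, which were level as groups. The TCRBJ01 cluster held 34.6% to 34.8% of unique rearrangements in CD27lo and 33.4% to 35.5% in CX3CR1+ (mean difference -0.190 ± 1.02 percentage points, SD, n = 3; exact sign-flip permutation p = 0.75).

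The J differences moved with a property of the template counts. In CD27lo, the share of rearrangements with at least 2 templates was 78.3% for TCRBJ02-07 and 60.8% for TCRBJ01-03 (means of 3 libraries), but 3.63% for TCRBJ01-01, 3.57% for TCRBJ01-06 and 5.92% for TCRBJ02-05. Out-of-frame rearrangements had the same pattern, with 3.66% for TCRBJ01-01. Across the 12 J genes the in-frame difference between subsets correlated with this out-of-frame share (Pearson r = 0.689, Spearman rho = 0.685, n = 12 J genes of the same libraries, a description). It also correlated with the out-of-frame difference (r = 0.816, rho = 0.853), and all 12 J genes had the same sign in both. No J gene of 12 (0%) was called in out-of-frame rearrangements by edgeR, with 3 at an unadjusted p under 0.05, and none of 12 (0%) differed between in-frame and out-of-frame, with 1 at an unadjusted p under 0.05. That gene was TCRBJ02-03, whose out-of-frame difference was -0.01 ± 0.08 and whose in-frame minus out-of-frame difference was -0.24 ± 0.09 (SE; edgeR adjusted p = 0.142). The part that J-dependent detection of rearrangements had in the J calls was not tested. Counting only rearrangements of at least 2 templates gave 11 calls of 12 and reversed 4 of the 5 genes, the exception being TCRBJ02-01.

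**Figure D4:**
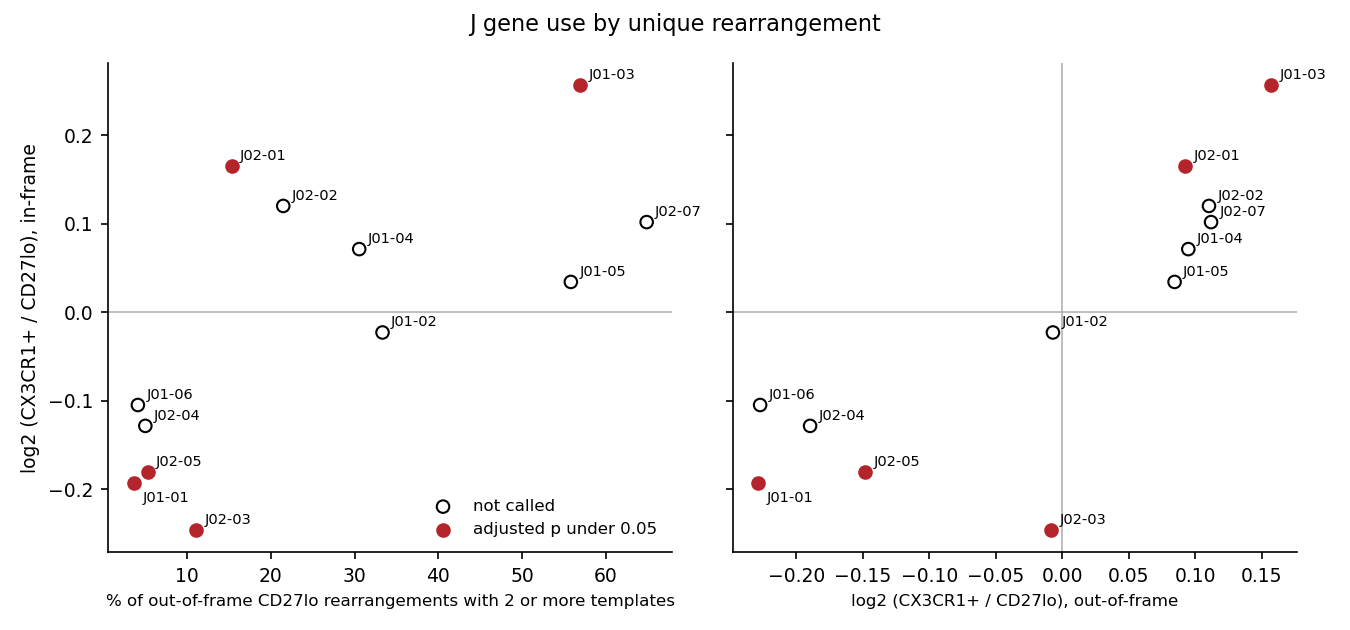
Difference in J gene use between CX3CR1+ and CD27lo by unique in-frame rearrangement (y axis, log2), against the share of out-of-frame CD27lo rearrangements with at least 2 templates (left, %) and against the same difference in out-of-frame rearrangements (right, log2), 1 point per J gene. Red points are the 5 called genes, and TCRBJ02-03 is the called gene with an out-of-frame difference near 0.

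TCRBJ01-03 was tied to 1 further property of the CX3CR1+ libraries. Between 1.52% and 2.04% of their unique rearrangements were not expanded but shared their last 36 bases with an expanded clone of the library, mostly with 1 template each. In CD27lo there were 0, 0 and 1 such rearrangements. Those libraries had only 7, 2 and 8 expanded clones to share an end with, against 143, 126 and 144 in CX3CR1+, so the counts are not comparable. Among TCRBJ01-03 rearrangements of CX3CR1+, the gene of the clone B1, they made up 2.51%, 6.79% and 6.41%. Without them the log2 difference of TCRBJ01-03 was 0.20 (edgeR adjusted p = 0.0877), while the other 4 J genes, TCRBV19-01 and its pair with TCRBJ02-01 remained called. By template, no J gene of 12 (0%) was called by edgeR, with 3 at an unadjusted p under 0.05, and 1 was called by DESeq2. Those 3 were TCRBJ02-07, TCRBJ02-04 and TCRBJ01-01, each lower in CX3CR1+ in 3 of 3 experiments (edgeR adjusted p = 0.114 for each). TCRBJ02-07 held 28.8% to 30.4% of CD27lo templates and 22.9% to 24.5% of CX3CR1+ templates. By unique rearrangement it went the other way (log2 difference 0.10, edgeR adjusted p = 0.0638). TCRBJ01-03 held 27.5% of CX3CR1+ templates in experiment B, where B1 is, and 8.36% and 8.88% in experiments A and C.

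The middle of the CDR3 had a different residue composition in the 2 subsets. Residues were counted over unique rearrangements after leaving out 4 at each end, which are mostly fixed by the V and J genes. Of 20 residues, 7 were called (35%). Arginine, which is positively charged, was higher in CX3CR1+, at 6.69%, 6.43% and 6.26% of residues against 5.86%, 5.76% and 5.89% in CD27lo (log2 difference 0.14 ± 0.02, SE; edgeR adjusted p = 1.2e-08). Aspartate, which is negatively charged, was lower, at 8.39%, 8.25% and 8.39% against 8.98%, 8.77% and 9.05% (-0.10 ± 0.01, SE; edgeR adjusted p = 1.2e-08). Residues of 1 CDR3 are not independent, and edgeR pooled the spread between libraries over the 20 residues, on which these small p-values rest. Without experiment A the edgeR adjusted p was 0.0436 for arginine and 0.0401 for aspartate.

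Counted by rearrangement, 33.1%, 32.0% and 31.1% in CX3CR1+ held an arginine and 30.1%, 29.7% and 30.5% in CD27lo. In CD27hi CX3CR1- cells the share was 29.8% to 30.1% and in TILs 29.7% to 29.8%, so the CX3CR1+ values were above those of all other libraries. The Wilson intervals of TILs, within 27.4% to 32.3%, overlapped those of CX3CR1+ in each experiment. By template, the share was higher in CX3CR1+ than in CD27lo in experiments A and B but not in C (30.2% against 30.4%). Cysteine, which is rare in the middle of productive CDR3s, was present in 26, 43 and 64 rearrangements of CD27lo and in 9, 6 and 23 of CX3CR1+, where the shares were 0.126%, 0.107% and 0.201%. Its log2 difference was -1.07 ± 0.27 (SE; edgeR adjusted p = 0.00096). The 2 groups overlapped in the share of rearrangements with cysteine, as the value in experiment C of CX3CR1+ was level with that of experiment A of CD27lo, and the call was lost without any of the 3 experiments.

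Glutamate, glutamine and threonine were also called lower and tyrosine higher, with log2 differences of -0.09, -0.07, -0.05 and 0.12. These 4 residues are encoded by several J genes. With the J gene shares of CX3CR1+ set equal to those of CD27lo, none of the 4 remained called (edgeR adjusted p between 0.396 and 0.579), whereas arginine (0.14 ± 0.02, adjusted p = 0.0084), aspartate (-0.07 ± 0.01, adjusted p = 0.0036) and cysteine (-1.08 ± 0.26, adjusted p = 0.0463) did. Counting only codons that lie in the junction, arginine remained called (0.13 ± 0.02, SE; edgeR adjusted p = 0.00105), while aspartate (-0.08 ± 0.03, adjusted p = 0.0736) and cysteine (-0.67 ± 0.23, adjusted p = 0.0813) were not. DESeq2 called cysteine alone. Among rearrangements of at least 2 templates, edgeR called neither arginine (adjusted p = 0.0625) nor aspartate (adjusted p = 0.280).

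**Figure D5:**
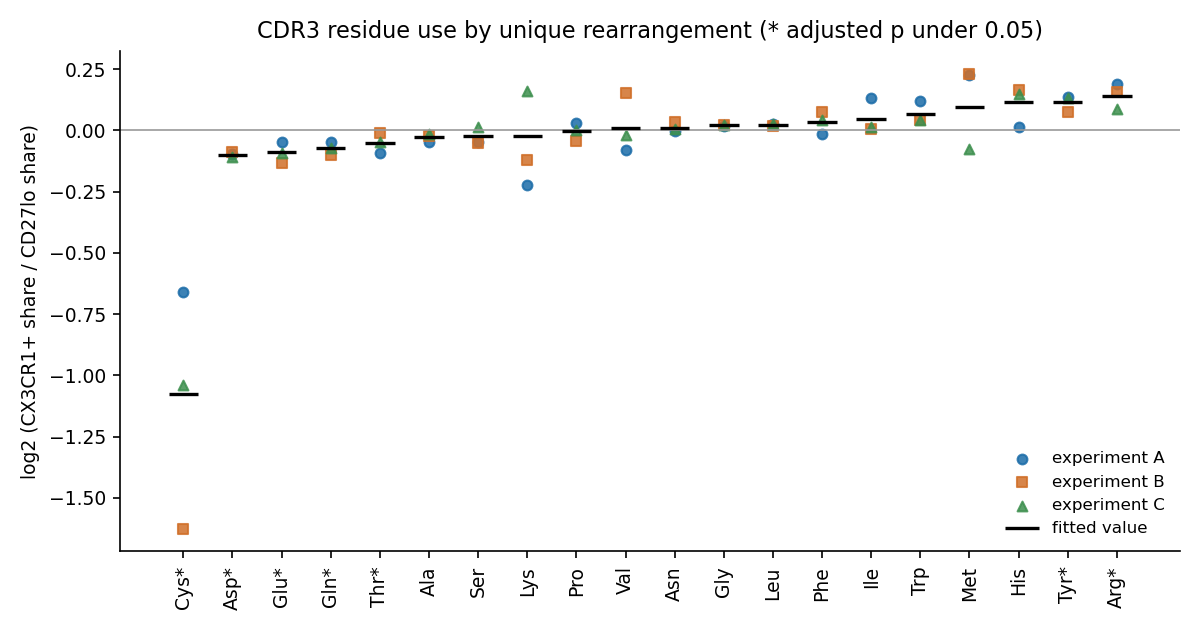
Difference in CDR3 residue use between CX3CR1+ and CD27lo (y axis, log2 ratio of the shares of residues) for 20 amino acids, 1 point per experiment and a black line at the fitted value. The 7 called residues carry an asterisk, and arginine and tyrosine, on the right, are the 2 called residues that were higher in CX3CR1+.

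CDR3 length and inserted bases differed little. None of 10 length classes (0%) was called by edgeR or DESeq2, and none had an unadjusted p under 0.05 in either. The mean CDR3 length by unique rearrangement was 13.95, 13.96 and 13.95 residues in CD27lo and 13.91, 13.93 and 13.93 in CX3CR1+ (difference -0.0277 ± 0.0120, SD, n = 3; exact sign-flip permutation p = 0.25). Inserted bases averaged 3.45 ± 0.0108 in CD27lo and 3.49 ± 0.0310 in CX3CR1+ (SD, n = 3), higher in CX3CR1+ in 3 of 3 experiments by 0.0392 ± 0.0347 (exact sign-flip permutation p = 0.25). With all 6 libraries at the same depth, the difference was 0.00727 ± 0.0293 (SD, n = 3; exact sign-flip permutation p = 0.75), and without shared ends 0.0237 ± 0.0438 (p = 0.5 by the same permutation test). The share without inserted bases, which can be made before birth when the inserting enzyme is not yet active, was 9.36% ± 0.209 and 9.32% ± 0.342 (SD, n = 3; exact sign-flip permutation p = 0.75).

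By template, the share without inserted bases was 9.45%, 9.66% and 9.17% in CD27lo and 7.42%, 8.48% and 7.79% in CX3CR1+, lower in all 3 experiments with an average difference of -1.53 ± 0.440 percentage points (SD, n = 3; exact sign-flip permutation p = 0.25). Without rearrangements found in both libraries this difference was -0.417 ± 1.70, and without the 10 most abundant of each library it was -0.807, with an SD larger than the difference (SD, n = 3; exact sign-flip permutation p = 0.75 in both). The mean number of inserted bases by template was lower in CX3CR1+ in experiment B, at 2.85 against 3.41, where B1, with 1 inserted base, is the leading clone, and the mean difference was -0.215 ± 0.303 (SD, n = 3; exact sign-flip permutation p = 0.5). Hydrophobic residues at both positions 6 and 7 of the CDR3, a feature linked to self-reactivity, were present in 2.31% ± 0.157 of unique rearrangements in CD27lo and 2.51% ± 0.276 in CX3CR1+ (SD, n = 3; exact sign-flip permutation p = 0.5). By template the shares were 2.27% ± 0.0989 and 1.74% ± 0.526 (SD, n = 3; exact sign-flip permutation p = 0.25), lower in CX3CR1+ in 3 of 3 experiments, and without the 10 most abundant rearrangements of each library the mean difference was 0.0025 percentage points.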

How the data were processed

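Rearranged TCR β genes were amplified from genomic DNA and sequenced with the ImmunoSEQ assay at survey level by the authors. The submitters' processing notes name the genome build mm10, and the aligner and its version are not given in the sources used here. The deposited counts are whole template numbers without normalization, the deposited fraction of each rearrangement is over all templates and was not used, and other deposited columns gave CDR3 length, insertions and gene positions. Only productive rows were kept. Gene names were matched to RefSeq symbols of GRCm38.p6 (45 of 45). Tables of counts per library were tested with edgeR 4.0.16 in R 4.3.3, with the library total as offset, a mean of at least 10 per library, the experiment as replicate block and Benjamini-Hochberg adjustment within each table. DESeq2 1.42.0, TMM factors, other filters, equal depth (for use and CDR3 values, all 6 libraries at 18180 templates; for clone detection in a spleen library, the smaller total of the libraries compared within an experiment; for detection by presence in CD27lo, the smallest total of the group searched; expected values in each) and leaving out each experiment were alternatives. Single values used exact sign-flip tests over 3 experiments. Template counts give each library's depth, which sets the intervals and limits. Python 3.11.15 and scipy 1.17.1 were used, and functions were tested on simulated data.

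Libraries were paired because the labels give them the same experiment code. CX3CR1+ and CD27lo libraries shared 441 to 538 rearrangements within an experiment and 52 to 120 between experiments, while same-experiment deviations of V-J use from the group means correlated weakly (0.117, -0.0429 and 0.0842). Named were all V and J genes called, the 4 V genes with the largest log2 difference where fewer were called, the called V-J pairs, the 3 most abundant clones of each CX3CR1+ library, the 2 most abundant of each CD27lo library not already named, and the expanded CD27lo clones highest relative to CX3CR1+. Clonotypes expanded in several experiments, out-of-frame tables, J-standardised and junction-only residues, shared ends, removal of TCRBJ02-07 and CD27hi detection by presence in CD27lo were added after seeing the data. The comparison and lists were chosen with earlier results of these data known.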

Additional observations from a re-analysis of the deposited data

How the results depend on the processing

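Each result was recomputed with 1 choice changed at a time. The 3 experiments limit every test, and the shallower CD27lo libraries limit what can be found there. The cause of the shifts listed here was not tested. Values without J02-07 rearrangements, without shared ends, from out-of-frame rearrangements, from junction codons or with J gene shares set equal, and all CD27hi detection values, were chosen after seeing the data.

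The libraries are paired by experiment. Without the replicate block, edgeR called 5 V genes and 2 J genes by template, 5 V-J pairs by unique rearrangement and 28 by template, against 0, 0, 1 and 0 with it. DESeq2 called 0 V genes, 0 J genes and 0 V-J pairs by unique rearrangement, 1 J gene and 10 V-J pairs by template, and 1 residue. TMM factors gave 1 V gene, 1 J gene and 4 V-J pairs by template and 4 V-J pairs by unique rearrangement. Without a filter, 1 V gene by template and 2 V-J pairs by unique rearrangement were called, and at a mean of at least 50, 5 such pairs. Calls of V-J pairs by unique rearrangement numbered 5 without rearrangements found in both libraries, 4 at equal depth, 5 as amino acid clonotypes and 4 without shared ends. Leaving out 1 experiment gave 0 V genes, 1 to 4 J genes (1 without A, 3 without C), 0 to 2 V-J pairs (2 without A, 0 without B or C) and 2 to 5 residues (2 without C) by unique rearrangement. By template it gave 0 to 4 J genes (1 without A, 4 without B) and 0 to 1 V-J pairs (1 without B). Out-of-frame tables gave 0 V genes and 0 J genes, junction codons 1 residue and equal J gene shares 3 residues.

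Counting only rearrangements with at least 2 templates gave 2 V genes, 11 J genes and 41 V-J pairs. It reversed TCRBJ01-01 (log2 difference 2.55), TCRBJ02-05 (1.51), TCRBJ02-03 (0.81) and TCRBJ01-03 (-0.33), and glutamate (0.054), glutamine (0.11), threonine (0.19) and tyrosine (-0.30). It also reversed the difference in mean CDR3 length, to 0.0940 residues by unique rearrangement and 0.0942 by template, and in the share without inserted bases, to 0.0335 percentage points by unique rearrangement. That share also reversed at equal depth (0.177) and ranged from -0.119 to 0.0164 over leaving out 1 experiment. Inserted bases by template reversed without rearrangements found in both libraries (0.110) and without the 10 most abundant (0.0196), as did the hydrophobic share by template without the 10 most abundant (0.0025). With at least 2 templates, arginine (log2 difference 0.14, edgeR adjusted p = 0.0625) and aspartate (-0.05, adjusted p = 0.280) kept their direction but were not called.

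The share of expanded CX3CR1+ clones found in CD27lo was 67.6% as amino acid clonotypes, 45.6% where at least 2 templates were needed, 47.7% at a threshold of 0.05%, 91.7% at 0.5%, 68.3% for the 100 most abundant and 68.5% without J02-07. For CD27lo clones found in CX3CR1+ it was 100% at 0.5% and 57.7% for the 100 most abundant. CD27lo templates found in CX3CR1+ were 13.8% as amino acid clonotypes, 5.89% at 2 templates, 5.70% at equal depth and 7.16% without J02-07. CX3CR1+ templates found in CD27lo were 61.9%, 44.5% and 61.2% as amino acid clonotypes, at 2 templates and without J02-07. The difference between CD27lo and CD27hi reversed at equal depth (19.4 percentage points), at 0.5% (4.60), for the 100 most abundant (0.333) and without J02-07 (0.542). The CD27hi detection difference reversed at 0.5% (-1.44), and the TIL detection difference ranged from -0.906 without experiment C to 5.84 without experiment B over leaving out 1 experiment, and from 0.660 to 8.69 over the other alternatives.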
